A study of Mus with 15 samples.

Results

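The 3 NR4A genes, Nr4a1, Nr4a2 and Nr4a3, and the EGR genes Egr1, Egr2 and Egr3 encode transcription factors that T cells switch on soon after the T cell receptor (TCR) meets antigen. They were taken by symbol from a table of 55573 mouse genes, of which 16069 were tested. All 6 were found, and all 6 passed the filter on low counts. RNA was sequenced in bulk from thymocytes of 6-week-old female mice of the strain labelled C57Bl/6 x Foxp3-GFP. Every gate took live TCRb+ CD4+ CD8- CD73- cells from thymus that had been mechanically dissociated and depleted of CD8 cells. Conventional CD4 single-positive (CD4SP) cells were Bst2-, CD25- and Foxp3-. CD25+ progenitors of regulatory T cells (Tregs) were Bst2-, CD25+ and Foxp3-, and FOXP3lo progenitors were Bst2-, CD25- and Foxp3lo. Mature Tregs were Bst2-, CD25+ and Foxp3+, and the Bst2+ gate held cells that were Bst2+ and CD25+, Foxp3+ or both. Each of the 5 gates had 3 libraries, numbered 40, 42 and 43 after biological replicates of a single sort. The labels do not state whether a replicate was 1 mouse or a pool, so p-values set differences between gates against the spread between these samples.

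The NR4A proteins are orphan nuclear receptors whose activity follows mainly from how much of them is made. Their genes respond to calcium signals through NFAT and MEF2 factors, and Nr4a1, which encodes NUR77, is a widely used readout of recent TCR signalling in the thymus, where NR4A factors take part in the deletion of self-reactive cells and in Treg formation. The EGR proteins are zinc finger factors whose genes respond mainly to the RAS and ERK pathway through SRF and its ELK partners. EGR factors act in positive selection, and EGR2 and EGR3 also switch on inhibitors of TCR signalling in T cells.

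The libraries held 10816064 to 23758157 counts. Levels are given as CPM, with library sizes scaled by TMM, and means carry the SD of 3 libraries. Foxp3 averaged 0.951 ± 0.545 CPM in conventional cells and 3.20 ± 1.24 in CD25+ progenitors, against 290.0 ± 15.9 in FOXP3lo progenitors and 598 ± 59.7 in mature Tregs, in the order of the gates. Cd4 averaged 531 CPM or more in every gate. Bst2 itself, whose protein defined the fifth gate, averaged 28.2 ± 19.2 CPM there against 12.2 to 15.1 elsewhere. The Bst2+ libraries varied most among themselves, with a biological coefficient of variation of 0.937 against 0.149 to 0.240 within the other gates. Since all 15 libraries share 1 estimate of spread in the tests, calls among the other gates are also given from a fit without the Bst2+ libraries.

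The 6 genes lie on 6 chromosomes (GRCm38). Nr4a1 (ENSMUSG00000023034) spans chromosome 15, 101254269 to 101274795. Nr4a2 (ENSMUSG00000026826) spans chromosome 2, 57106830 to 57124003, and Nr4a3 (ENSMUSG00000028341) spans chromosome 4, 48045153 to 48086447. Egr1 (ENSMUSG00000038418) spans chromosome 18, 34859823 to 34864984. Egr2 (ENSMUSG00000037868) spans chromosome 10, 67535475 to 67542188, and Egr3 (ENSMUSG00000033730) spans chromosome 14, 70077203 to 70082614. No other annotated gene overlaps any of them in the count table. Egr4, the remaining EGR gene, had 4 counts in all, 1 in conventional replicate 42 and 3 in FOXP3lo replicate 40, and was not tested.

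All 3 NR4A genes were highest in CD25+ progenitors. Nr4a1 stood at 339, 381 and 458 CPM there in replicates 40, 42 and 43. It stood at 229, 203 and 204 CPM in FOXP3lo progenitors and at 203, 234 and 184 CPM in mature Tregs. Conventional cells had 163, 143 and 160 CPM and Bst2+ cells had 79.4, 123 and 148 CPM. The CD25+ progenitor libraries lay above every other library, while FOXP3lo progenitors and mature Tregs overlapped. Set against conventional cells, Nr4a1 in CD25+ progenitors was higher by a log2 fold change of 1.34 ± 0.17 (SE), or 2.53-fold, with an adjusted p of 3.41e-05 (edgeR's quasi-likelihood test, Benjamini-Hochberg over all genes tested, as in all that follow). It was higher than in FOXP3lo progenitors by 0.89 ± 0.17 (adjusted p = 0.000992). In these bulk samples, fewer cells with a transcript and less of it per cell cannot be told apart.

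Nr4a3, which encodes NOR1, separated the gates most cleanly. It was at 386, 404 and 416 CPM in CD25+ progenitors in replicates 40, 42 and 43, and at 320.3, 319.8 and 301 CPM in mature Tregs. FOXP3lo progenitors had 248, 232 and 233 CPM, conventional cells 111, 98.8 and 115 CPM, and Bst2+ cells 112, 139 and 109 CPM. No library of these first 3 gates overlapped a library of another gate, while conventional and Bst2+ libraries overlapped. Against conventional cells Nr4a3 was higher by 1.89 ± 0.10 on the log2 scale in CD25+ progenitors (3.71-fold, adjusted p = 1.52e-09), by 1.53 ± 0.10 in mature Tregs (adjusted p = 7.39e-09) and by 1.13 ± 0.10 in FOXP3lo progenitors (adjusted p = 6.63e-07). It was lower in mature Tregs than in CD25+ progenitors by a log2 fold change of −0.36 ± 0.09 (adjusted p = 0.0164) and higher in mature Tregs than in FOXP3lo progenitors by 0.40 ± 0.09 (adjusted p = 0.0186). Among the 12 libraries without Bst2+ cells, the SD of Nr4a3 within a gate was 0.07 on the log2 scale, beside a median of 0.08 for the 500 genes nearest in level.

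Nr4a2, which encodes NURR1, was the lowest member of its family. It stood at 16.8, 25.3 and 19.96 CPM in CD25+ progenitors and at 7.49, 11.6 and 14.95 CPM in mature Tregs. FOXP3lo progenitors had 10.4, 10.1 and 8.498 CPM, conventional cells 4.53, 6.63 and 6.90 CPM, and Bst2+ cells 5.27, 2.102 and 8.95 CPM. The CD25+ progenitor libraries again lay above all others, and the mature Treg libraries spanned those of FOXP3lo progenitors. The smallest count behind these values was 26 reads, in Bst2+ replicate 42. In CD25+ progenitors Nr4a2 exceeded its conventional level by 1.78 ± 0.42 on the log2 scale (adjusted p = 0.00877), a call lost without conventional replicate 40 or CD25+ progenitor replicate 42 (highest adjusted p = 0.0618). With the Bst2+ libraries left out it was 1.79 ± 0.24 (adjusted p = 6.78e-08), called with any library left out.

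The EGR genes were ordered differently, with CD25+ progenitors at or near the bottom. Egr1 stood at 171, 149.7 and 177 CPM in conventional cells in replicates 40, 42 and 43. It stood at 180.1, 149 and 166 CPM in FOXP3lo progenitors and at 119, 125 and 113 CPM in mature Tregs. CD25+ progenitors had 101, 91.6 and 101 CPM, and Bst2+ cells 90.6, 94.1 and 123 CPM. Conventional and FOXP3lo libraries overlapped each other and lay above all libraries of the remaining gates. Relative to conventional cells, Egr1 in CD25+ progenitors was lower by a log2 fold change of −0.76 ± 0.12 (adjusted p = 0.000265) and lower in mature Tregs by −0.48 ± 0.12 (adjusted p = 0.0112, and 0.0661 without conventional replicate 43). In FOXP3lo progenitors the difference from conventional cells was −0.01, with a 95% interval from −0.26 to 0.24.

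Egr2 stood at 43.1, 47.7 and 53.6 CPM in conventional cells and at 51.1, 44.2 and 57.5 CPM in FOXP3lo progenitors. It stood at 35.2, 28.9 and 30.1 CPM in CD25+ progenitors, at 28.6, 31.7 and 38.8 CPM in mature Tregs and at 23.3, 27.3 and 27.0 CPM in Bst2+ cells. As with Egr1, the conventional and FOXP3lo libraries overlapped each other and lay above the rest. In log2 terms Egr2 lay below its conventional level by −0.62 ± 0.16 in CD25+ progenitors (adjusted p = 0.0190) and by −0.54 ± 0.16 in mature Tregs (adjusted p = 0.0390). These calls are close to the threshold. The first was lost in 4 of 6 fits that left out 1 library (conventional or CD25+ progenitor replicates 42 and 43) and the second in 5 of 6 (all but mature Treg replicate 43), with adjusted p up to 0.109 and 0.184. Without the Bst2+ libraries both were called (adjusted p = 0.000170 and 0.000967), also with any library left out.

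Egr3 was the member with a peak in FOXP3lo progenitors, at 48.9, 47.0 and 50.5 CPM in replicates 40, 42 and 43. Conventional cells had 36.7, 34.2 and 31.9 CPM, mature Tregs 23.6, 27.5 and 22.1 CPM, and CD25+ progenitors 19.5, 21.6 and 19.2 CPM. These 4 gates did not overlap for Egr3. In Bst2+ cells it stood at 10.2, 19.7 and 57.4 CPM, so that 1 gate held both the lowest and the highest library of the series. That spread, an SD of 1.25 on the log2 scale within the Bst2+ gate against 0.11 within the others, enters the shared estimate. With it, only the difference between CD25+ and FOXP3lo progenitors was called, at −1.28 ± 0.39 (adjusted p = 0.0265), and this call was lost without any 1 of the 6 libraries (adjusted p = 0.0633 to 0.0984). Without the Bst2+ libraries the same difference was −1.28 ± 0.13 (adjusted p = 6.62e-11). In that fit Egr3 in FOXP3lo progenitors also exceeded its conventional level, by 0.51 ± 0.13 (adjusted p = 0.00175), and it was lower than in conventional cells by −0.77 ± 0.13 in CD25+ progenitors (adjusted p = 6.81e-06) and by −0.49 ± 0.13 in mature Tregs (adjusted p = 0.00289).

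**Figure D1:**
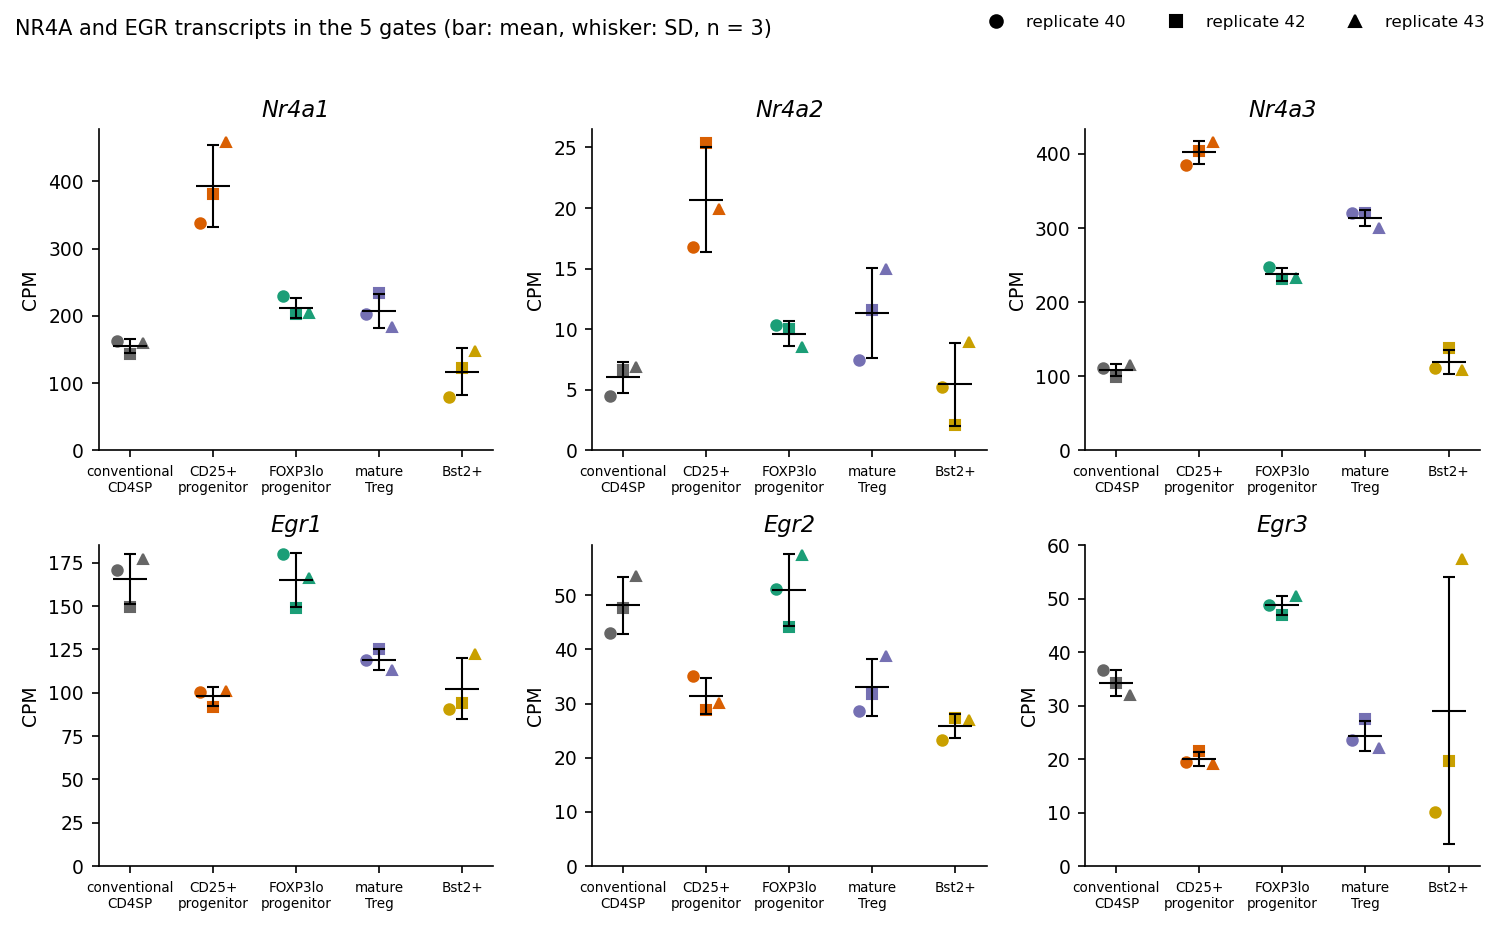
Level (CPM, linear axis from 0) of each of the 6 genes in each library, by gate, with a bar at the mean and a whisker of 1 SD (n = 3). The NR4A genes peaked in CD25+ progenitors, at a mean of 393 CPM for Nr4a1 and 402 for Nr4a3, where Egr1 averaged 97.9 CPM, while Egr3 was widely spread in the Bst2+ gate.

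Counted over the 6 genes, CD25+ progenitors differed from conventional cells in 5, with 3 NR4A genes higher and Egr1 and Egr2 lower. The background was 11.6% of all genes tested called in this comparison, 5.98% higher and 5.66% lower. Leaving out the Bst2+ libraries, all 6 were called, beside a background of 29.0%. FOXP3lo progenitors differed from conventional cells in 1, Nr4a3, against a background of 8.71%. In the fit without Bst2+ cells 4 were called, all higher (Nr4a1, Nr4a2, Nr4a3 and Egr3), beside a background of 25.1% called and 12.8% called higher. Of these, the call of Nr4a2 held in 3 of 6 fits that left out 1 more library. Mature Tregs differed from conventional cells in 3 (Nr4a3 higher, Egr1 and Egr2 lower) against a background of 12.2%. With those libraries left out all 6 were called, again with 3 NR4A genes higher and 3 EGR genes lower, beside a background of 30.4%. These comparisons share the conventional libraries.

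Set directly against each other, CD25+ and FOXP3lo progenitors differed in 5 of the 6 genes, beside a background of 19.1% of all genes called. Nr4a1 and Nr4a3 were higher in CD25+ progenitors, Nr4a3 by 0.76 ± 0.10 (adjusted p = 1.60e-05). Egr1, Egr2 and Egr3 were lower there, Egr1 by −0.75 ± 0.12 (adjusted p = 0.000168) and Egr2 by −0.70 ± 0.16 (adjusted p = 0.00522). Nr4a2 had a log2 difference of 1.10 ± 0.41 that missed the threshold (adjusted p = 0.0768) but passed it in the fit without Bst2+ cells (adjusted p = 0.000123), where all 6 were called beside a background of 39.5%.

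By mean CPM, mature Tregs lay between the progenitors for each gene but Nr4a1, at 207 beside 212 in FOXP3lo progenitors. Their libraries overlapped those of FOXP3lo progenitors for Nr4a2 and those of CD25+ progenitors for Egr2. Against CD25+ progenitors, 2 of the 6 genes differed beside a background of 13%. Nr4a1 was lower by −0.92 ± 0.17 (adjusted p = 0.00115), and Nr4a3 was lower by the −0.36 given above, a call lost without CD25+ progenitor replicate 42 or 43 or mature Treg replicate 43 (adjusted p up to 0.0747). Without the Bst2+ libraries Nr4a2 was also lower, by −0.86 ± 0.23 (adjusted p = 0.00279), and Egr1 higher, by 0.28 ± 0.08 (adjusted p = 0.00562), which made 4 calls beside a background of 32.7%. Against FOXP3lo progenitors, 3 differed beside a background of 4.72%. Nr4a3 was higher, Egr1 was lower by −0.47 ± 0.12 (adjusted p = 0.0274) and Egr2 was lower by −0.62 ± 0.16 (adjusted p = 0.0360). Leaving out 1 library left 0 to 2 of these 3 calls, beside 418 to 519 of all genes called, against 759 with all libraries. Without the Bst2+ libraries these 3 and Egr3, which was 0.5006 of its FOXP3lo level, were called, beside a background of 18.7%. These calls held in every fit that left out 1 more library. Nr4a1 did not separate mature Tregs from FOXP3lo progenitors, with a difference of −0.03 and a 95% interval from −0.39 to 0.32.

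**Figure D2:**
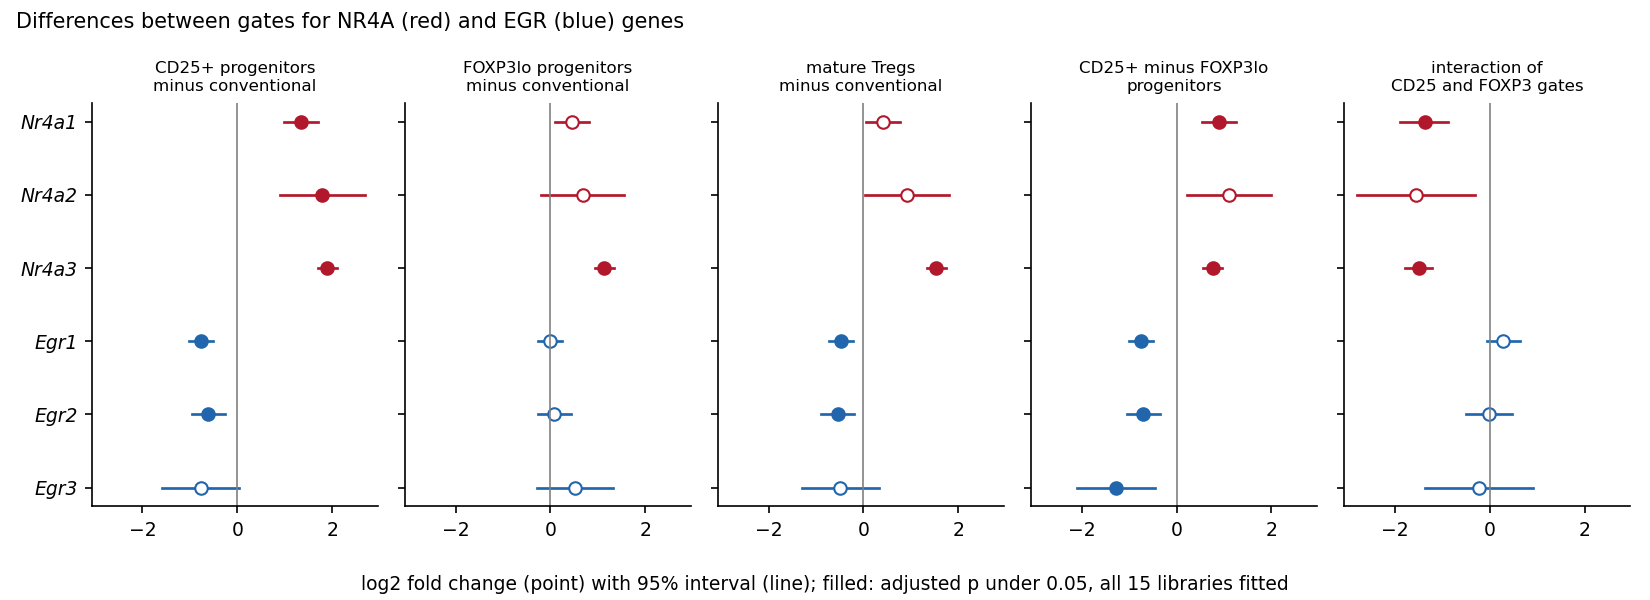
Log2 fold change (point) with its 95% interval (line) for each gene in 5 comparisons, from the fit of all 15 libraries, where filled points are called at an adjusted p under 0.05. NR4A genes (red) lie to the right and EGR genes (blue) to the left in the CD25+ progenitor panels, from 1.89 for Nr4a3 to −0.77 for Egr3 against conventional cells.

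The gates form a square of CD25 by FOXP3, so the CD25 difference among FOXP3-expressing gates (mature Tregs minus FOXP3lo progenitors) can be set against that among FOXP3-negative gates (CD25+ progenitors minus conventional cells). For Nr4a3 these were 0.40 and 1.89, and for Nr4a1 they were −0.03 and 1.34. The interaction was −1.49 ± 0.13 for Nr4a3 (adjusted p = 4.86e-06) and −1.37 ± 0.24 for Nr4a1 (adjusted p = 0.00320), beside a background of 2.35% of genes called. Both calls held without any 1 of the 12 libraries. Nr4a2 had an interaction of similar size, −1.55 ± 0.59, that missed the threshold (adjusted p = 0.301, and 0.000781 without the Bst2+ libraries, where the background was 10.9%). None of the EGR genes was called in either fit, although Egr1 was in the fit without Bst2+ cells once conventional replicate 42 was also left out (adjusted p = 0.0443). With all 15 libraries they had 95% intervals from −0.06 to 0.64 for Egr1, from −0.50 to 0.48 for Egr2 and from −1.37 to 0.91 for Egr3. The mature gate was sorted as Foxp3+ and the FOXP3lo gate as Foxp3lo, so the square is not balanced in FOXP3. Nor is it balanced in CD25, whose gene, Il2ra, was itself called in the interaction.

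To compare levels between genes, CPM was divided by exon length. In CPM per kb, Nr4a1 was the highest of the 6 in every gate, at 44.2 ± 3.07 in conventional cells and 111.9 ± 17.3 in CD25+ progenitors. Egr1 came next in conventional cells, at 37.0 ± 3.20, and Nr4a3 next in CD25+ progenitors, at 67.2 ± 2.57, where Egr1 was at 21.8 ± 1.22. Nr4a2 was the lowest in every Bst2- gate but CD25+ progenitors, where it was at 5.10 ± 1.07 beside 4.56 ± 0.302 for Egr3. Summed per kb, the NR4A genes ranged over 58.8 to 66.5 CPM per kb in conventional libraries and 165 to 205 in CD25+ progenitors. The EGR genes ranged over 55.2 to 62.5 in conventional libraries and 33.8 to 37.2 in CD25+ progenitors. The NR4A sum was thus close to the EGR sum in conventional cells and lay above it in every library of the other Bst2- gates.

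Ratios taken within a library do not depend on its depth or scaling. Per length, Nr4a3 stood to Egr1 at 0.489 ± 0.00479 in the conventional gate, 1.08 ± 0.0713 in the FOXP3lo gate, 1.97 ± 0.0537 in mature Tregs and 3.08 ± 0.219 in CD25+ progenitors (SD, n = 3). These 4 sets of libraries did not overlap. The ratio of Nr4a1 to Nr4a3 ran another way, at 2.45 ± 0.0614 for conventional cells, 1.66 ± 0.196 for CD25+ progenitors, 1.52 ± 0.0455 for the FOXP3lo gate and 1.12 ± 0.108 for mature Tregs, so Nr4a3 made up a larger part of the NR4A transcripts in all 3 Treg-lineage gates. Within the EGR family the ratio of Egr1 to Egr2 stayed between 2.37 and 2.79 on average in these gates. The ratio of Egr1 to Egr3 was 3.32 ± 0.263 in FOXP3lo progenitors and 4.78 to 4.82 on average in the others.

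**Figure D3:**
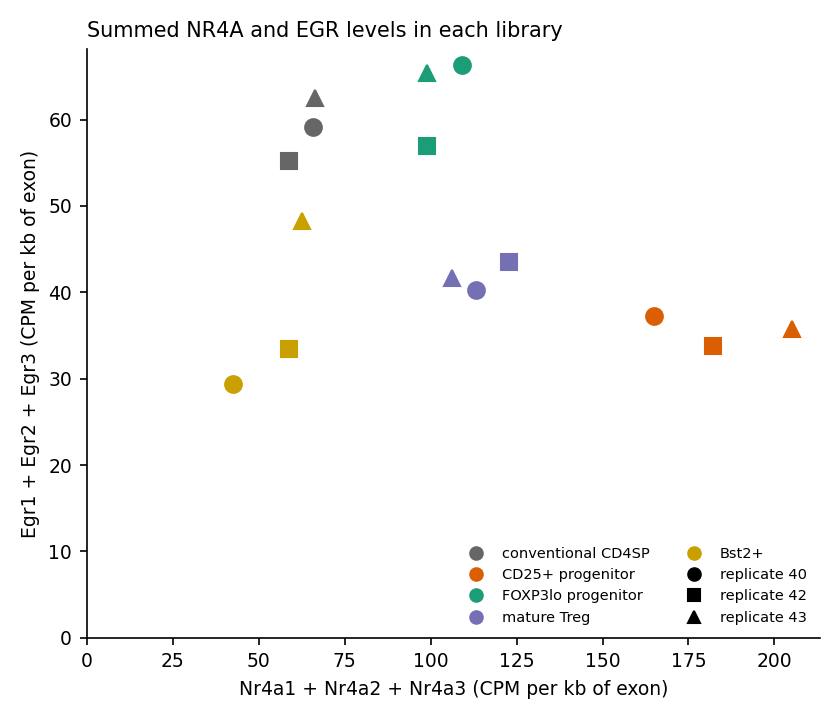
Summed level of the NR4A genes (horizontal) against that of the EGR genes (vertical) in each library, both in CPM per kb of exon on linear axes from 0, with colour for the gate and shape for the replicate. CD25+ progenitors lie apart at 165 to 205 on the NR4A axis and 33.8 to 37.2 on the EGR axis, and the Bst2+ libraries lie low on the NR4A axis, at 42.6 to 62.6.

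In the Bst2+ gate 5 of the 6 genes were lower than the average of the other CD25 or FOXP3 gates, beside a background of 39.1% of all genes called and 19.8% called lower. The NR4A genes were lower by −1.14 ± 0.15 for Nr4a1, −1.26 ± 0.37 for Nr4a2 and −1.38 ± 0.08 for Nr4a3 on the log2 scale (adjusted p = 1.60e-05, 0.0120 and 4.05e-09). Egr2 was lower by −0.54 ± 0.14 (adjusted p = 0.00602). Egr1 was lower by −0.28 ± 0.10 (adjusted p = 0.0329), a call lost with 5 of the other settings and without FOXP3lo replicate 40 or Bst2+ replicate 40 or 42. Egr3 had a difference of 0.02 ± 0.31, and −0.95 without Bst2+ replicate 43 (adjusted p = 0.00107). Against conventional cells 2 were called, Egr1 at −0.69 ± 0.12 (adjusted p = 0.000387) and Egr2 at −0.89 ± 0.17 (adjusted p = 0.000750), beside a background of 29.1%. Without Bst2+ replicate 43, 4 were called in this comparison, beside 6176 of 17121 genes tested, where all libraries gave 4669 of 16069.

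Markers of macrophages and dendritic cells, B cells, CD8 and double-positive cells and gamma-delta cells had their highest sums in the Bst2+ libraries, while those of NKT and innate-like cells had theirs in mature Tregs. All 11 matched macrophage and dendritic cell markers were detected in the Bst2+ gate, with a sum of 601 to 1024 CPM against 12.7 to 27.8 in the other gates. Between 1 and 6 of them were at 0 in each of those gates, C1qa and Siglech among conventional cells, Lyz2, C1qa, C1qc and Siglech in CD25+ progenitors, Flt3 in FOXP3lo progenitors and Lyz2, C1qb, C1qc, Itgax, Adgre1 and Siglech in mature Tregs. The 8 B cell markers summed to 64.9, 422 and 813 CPM in Bst2+ replicates 40, 42 and 43. They summed to 20.6 to 52.3 CPM elsewhere, where those at 0 included Ms4a1 in CD25+ progenitors and Pax5 and Cd22 in mature Tregs. Of the 6 genes, Nr4a1, Egr1 and Egr3 stood in the same order over these 3 Bst2+ libraries, while Nr4a2, Nr4a3 and Egr2 did not. The 7 markers of CD8 and double-positive cells, all detected in every gate, summed to 758 to 1314 CPM in the Bst2+ libraries. They summed to 158 to 205 in CD25+ progenitors, 53.1 to 92.6 in conventional cells and 20.1 to 42.2 in the remaining gates. The 6 gamma-delta markers, with Trdv4 at 0 throughout, summed to 107 to 293 CPM in the Bst2+ libraries. In CD25+ progenitors they summed to 38.3 to 44.6, and elsewhere to 10.2 to 23.0. The 8 NKT and innate-like markers, which include Il2rb and Xcl1, summed to 110.4 to 169 CPM in Bst2+ cells, 652 to 702 in mature Tregs, 195 to 233 in both progenitor gates and 48.7 to 61.8 in conventional cells. Their part in the levels of the 6 genes was not tested.

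Of 26 genes listed for the TCR signalling chain, 12 were lower in CD25+ progenitors than in conventional cells, 1, Map2k2, was higher and 13 were not called. Of all genes tested, 5.66% were lower and 5.98% higher in this comparison. The median log2 fold change of the list was −0.27 beside −0.012 over all genes tested. The kinases Fyn (−0.68 ± 0.08, adjusted p = 1.18e-05), Prkcq (−0.62 ± 0.07, adjusted p = 1.81e-05) and Lck (−0.43 ± 0.08, adjusted p = 0.000938) and the receptor chain Cd3e (−0.48 ± 0.08, adjusted p = 0.000721) were among those lower. In mature Tregs 10 of the 26 were lower and 2 higher, beside 12.2% of all genes called, led by the adaptor Lat (−0.92 ± 0.09, adjusted p = 2.16e-06). In FOXP3lo progenitors 3 of the 26 were called, a share near the 8.71% of all genes, with Lat at −0.43 ± 0.09.

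Among 21 regulators upstream of these genes (SRF and its partners, MEF2 and NFAT factors, class IIa deacetylases and CREB factors), 1 was higher and 3 were lower in CD25+ progenitors than in conventional cells, beside 11.6% of all genes called, with a median of −0.01. Elk3, an ETS factor that partners SRF, was higher, at 120 ± 3.09 CPM against 53.7 ± 0.991 (log2 1.16 ± 0.15, adjusted p = 3.41e-05), and it was also higher in FOXP3lo progenitors and in mature Tregs (0.63 and 0.68). The interaction of CD25 and FOXP3 was called for 2 of the 21, Elk3 (−1.11 ± 0.21, adjusted p = 0.00610) and Hdac4, beside 2.35% of all genes. Both had the direction of Nr4a1 and Nr4a3, and a link to those genes was not tested. The genes lower in CD25+ progenitors than in conventional cells were Mef2d (−0.50 ± 0.11, adjusted p = 0.00420), Elk4 (−0.33 ± 0.08) and Nfatc2 (−0.63 ± 0.20). In FOXP3lo progenitors 4 of the 21 were higher, led by Nfatc3 (0.73 ± 0.08, adjusted p = 9.66e-06), and Hdac7 was lower, beside 8.71% of all genes called. Without the Bst2+ libraries the CD25+ progenitor counts were 7 higher and 7 lower, beside 29.0% of all genes called.

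The EGR list joined the corepressors Nab1 and Nab2 to genes reported as EGR2 or EGR3 targets in T cells. Of 16 tested, 5 were higher and 4 lower in CD25+ progenitors than in conventional cells, with a median of 0.12, beside 5.98% of all genes called higher and 5.66% lower. Nab2, which binds EGR factors and is itself an EGR target, averaged 84.0 ± 6.99 CPM in mature Tregs, 85.5 ± 8.38 in CD25+ progenitors, 101 ± 1.19 in the FOXP3lo gate and 164.5 ± 10.7 in conventional cells. It was lower than in conventional cells in all 3 gates, by −0.70 to −0.97 on the log2 scale. Dgka, a diacylglycerol kinase that dampens RAS signalling, averaged 1373 ± 38.9 CPM in FOXP3lo progenitors, 1066 ± 35.8 in conventional cells and 501.5 ± 16.6 in CD25+ progenitors. The means of Egr2 and Egr3 had the same order in these gates, and a link to Dgka was not tested. Cblb, an E3 ligase that restrains TCR signalling, was instead higher than in conventional cells in all 3, by 1.29 ± 0.09 in the FOXP3lo gate, 1.14 ± 0.09 in mature Tregs and 0.80 ± 0.09 in CD25+ progenitors. Tnfrsf9, a costimulatory receptor that the list of early TCR-response genes also holds, had the largest rise of the 16 that was called, 3.53 ± 0.17 in CD25+ progenitors.

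Among genes reported downstream of NR4A in T cells, 7 of 14 tested were higher and 3 lower in CD25+ progenitors than in conventional cells, with a median of 1.11, beside 5.98% of all genes called higher and 5.66% lower. Ikzf2, which encodes the Treg factor HELIOS, averaged 95.3 ± 2.79 CPM in conventional cells and 1158 ± 48.7 in CD25+ progenitors (adjusted p = 3.07e-10). Bcl2l11, which encodes the death factor BIM, averaged 263 ± 33.1 CPM in CD25+ progenitors, 111 ± 16 in the FOXP3lo gate, 91.0 ± 7.84 in conventional cells and 53.8 ± 7.18 in mature Tregs. The inhibitory receptor gene Pdcd1 (1.82 ± 0.26) and Cd200 (1.85 ± 0.17) were higher in CD25+ progenitors, while Tox, Klf2 and Runx1 were lower, Tox by −0.57 ± 0.09 (adjusted p = 0.000328). In mature Tregs 7 were higher and 2 lower, and in FOXP3lo progenitors 6 were higher and 2 lower, beside 12.2% and 8.71% of all genes called. The list medians there were 1.15 and 0.42. Its summed level was highest in mature Tregs, at 2321 to 2590 CPM, beside 2092 to 2230 in CD25+ progenitors and 1677 to 1775 in FOXP3lo progenitors. Whether these genes follow the NR4A levels was not tested.

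Of 22 other early TCR-response genes, 13 were higher and 2 were lower in CD25+ progenitors than in conventional cells, with a median of 2.01, beside 5.98% of all genes called higher and 5.66% lower. Those with the smallest adjusted p were Tnfrsf9, Tnfrsf4, a costimulatory receptor (2.25 ± 0.16), Tagap (2.38 ± 0.19) and Dusp4, an ERK phosphatase (4.49 ± 0.38, adjusted p = 4.16e-07). The 13 also include Il2, which had counts in no other gate. It passed the filter on low counts only through the CD25+ progenitor libraries, so its call adds no separate support. The members that were lower were Dusp6, a phosphatase that acts on ERK (−0.74 ± 0.19, adjusted p = 0.0137), and Cd69, a surface activation marker (−0.47 ± 0.12, adjusted p = 0.0151). Both were lower in FOXP3lo progenitors and mature Tregs too, Dusp6 by −0.72 and −1.50 and Cd69 by −0.41 in each. In FOXP3lo progenitors 8 were higher and 3 lower, and in mature Tregs 10 were higher and 2 lower, beside 8.71% and 12.2% of all genes called. Against FOXP3lo progenitors, CD25+ progenitors had 11 higher, Il2 again among them, and 1, Cd5, lower, beside 19.1% of all genes called. Tnfrsf9, Tagap, Spry1 and Dusp4 were among 7 of the 22 whose interaction of CD25 and FOXP3 was called, each in the direction of Nr4a1 and Nr4a3, beside 2.35% of all genes called.

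Handling of tissue can raise immediate early genes, so AP-1 and stress genes were measured as a separate list. Its 16 matched members summed to 728 to 769.9 CPM in conventional libraries, 641 to 721 in CD25+ progenitors, 916 to 1003 in FOXP3lo progenitors, 966 to 1123 in mature Tregs and 588 to 687 in Bst2+ cells. In CD25+ progenitors 1 of 14 tested was higher than in conventional cells, Fosl2 (0.85 ± 0.23, adjusted p = 0.0214), and Zfp36 (−1.01 ± 0.17, adjusted p = 0.000729) and Ier2 (−0.54 ± 0.15, adjusted p = 0.0218) were lower, beside 11.6% of all genes called. In mature Tregs 5 of the 14 were higher, among them Jun, at 91.4 ± 29.9 CPM against 22.1 ± 8.37 (2.06 ± 0.36, adjusted p = 0.000776), beside 12.2% of all genes called. Fos averaged 5.42 to 9.48 CPM across the 5 gates. Among Bst2- gates the list sum was lowest in CD25+ progenitors, and its part in the NR4A and EGR differences was not tested.

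**Figure D4:**
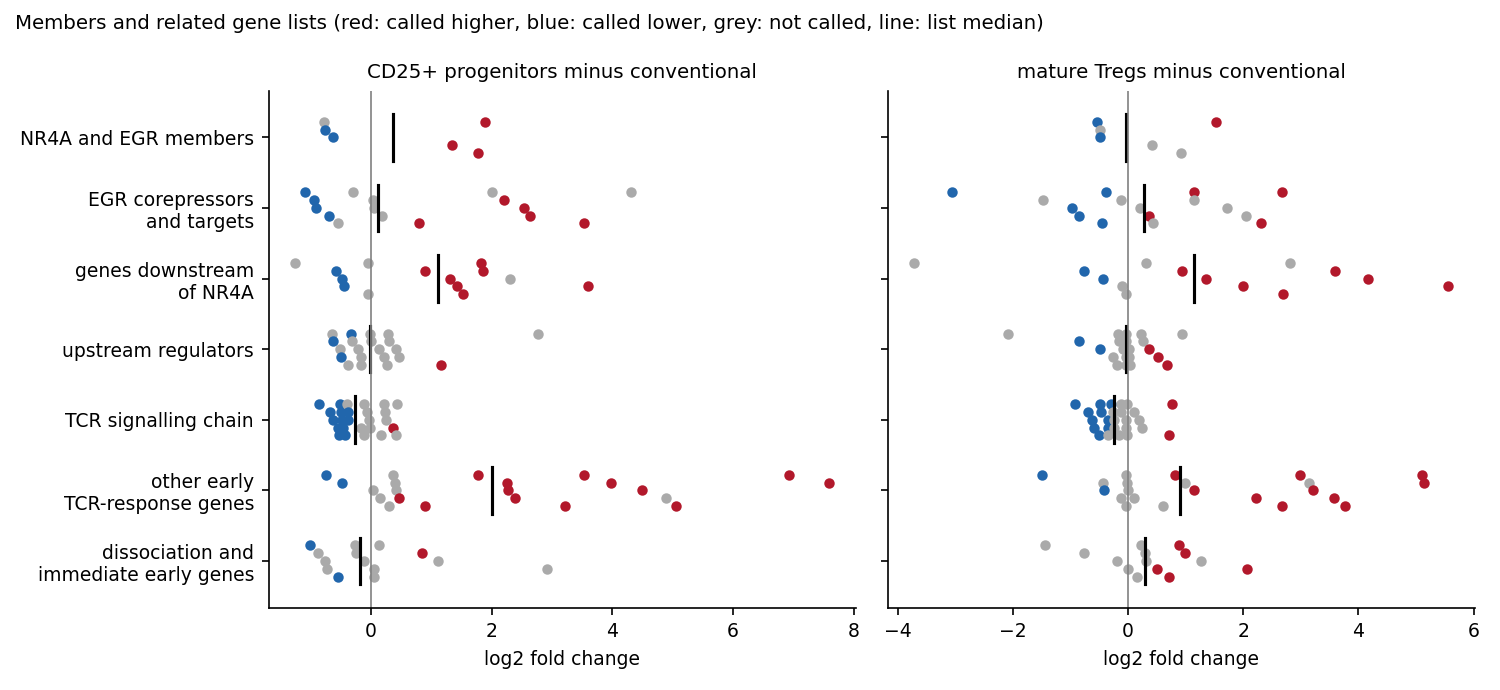
Log2 fold change of each tested member of 7 gene groups (horizontal axis) in CD25+ progenitors and in mature Tregs against conventional cells, with red for called higher, blue for called lower, grey for not called and a line at the median. In CD25+ progenitors the early TCR-response genes have a median of 2.01, with 13 of 22 called higher, among them Il2, which had counts in that gate alone. The TCR signalling chain has a median of −0.27 there, with 12 of 26 called lower.

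Over the 12 libraries without Bst2+ cells, log2 CPM of the NR4A genes correlated with one another at r = 0.83 to 0.86 and that of the EGR genes at 0.81 to 0.88, while pairs across the families ranged from −0.55 to −0.82. These points share gates, so the values describe the differences between gates already given. After subtraction of gate means, r was 0.77 for Nr4a1 with Nr4a3, 0.75 for Nr4a3 with Egr1 and between −0.38 and 0.58 for the other pairs, over differences between replicates that are small. Among 10304 genes compared over all 15 libraries, those most like Nr4a3 were Tnfrsf9 (r = 0.984), Tnfrsf1b, a TNF receptor (0.980), Rgs16, a regulator of G protein signalling (0.978), Ikzf2 (0.964) and the NF-kB subunit gene Nfkb1 (0.962). Those most like Nr4a1 were Phc2 (0.956), Zfp219 (0.950), Gramd1b (0.937), Zfpm1 (0.934) and Kdm2b (0.933). Nr4a2 was matched best by Elk3 (0.935), then by Cdk17, Adarb1, Socs7 and Slc45a3 (0.889 to 0.930). Egr1 was matched best by Fam102a (0.975), Armc7 (0.963), Mast3 (0.953), Cd3e (0.943) and Laptm5 (0.940). For Egr2 the first was Rnf167 (0.924), followed by Dennd1c, Arhgap45, Fam102a and Fnbp4 (0.918 to 0.921). For Egr3 they were 5830416I19Rik (0.945), Zdhhc17 (0.938), 9430015G10Rik (0.914), Rapgef2 (0.910) and Dusp7, an ERK phosphatase (0.897). Over the 12 libraries without Bst2+ cells, r of these matches was 0.823 to 0.936 for Egr3, 0.863 to 0.904 for Nr4a2 and 0.870 to 0.928 for Egr2. It was 0.893 to 0.960 for Nr4a1, 0.952 to 0.976 for Egr1 and 0.973 to 0.996 for Nr4a3.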

How the data were processed

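The authors deposited raw counts of read pairs per Ensembl gene, made with featureCounts 1.6.2 on Ensembl 97 (GRCm38), per the file headers, which require both ends to map, a mapping quality of 10 or more and strand setting 2. The submitters' processing notes name Trimmomatic 0.33, HISAT2 2.1.0 and featureCounts 1.4.6, another version of the counter. Libraries were made with the SMARTer Stranded Total RNA-Seq v2 Pico kit, per the labels' protocols. All value columns were mapped to a library (0 were not).

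Symbols came from positions in a RefSeq table of the same build (at least 0.5 Jaccard overlap with a margin of 0.2, or a shared end or sole partner), which named 36652 of 55573 genes. Of 182 list entries, 175 matched. Those without a match were Tigit, Junb, Dusp1, Hspa1a, Hspa8, Tcrg-V6 and Itgam.

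Counts of 15 libraries were fitted in R 4.3.3 with edgeR 4.0.16 (quasi-likelihood, robust, 5 gate means, filterByExpr, TMM), and a Benjamini-Hochberg adjusted p under 0.05 made a call, adjusted over 16069 genes (15648 without the Bst2+ libraries). The code was tested on simulated data. CPM used TMM factors, and correlations used log2 CPM with a prior count of 2 over genes of at least 5 CPM in their highest gate. CPM per kb of exon replaced TPM, the unit first planned for levels between genes.

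The 6 genes and the lists were chosen with earlier results of these data known. The genes named are the 6, Egr4, the gate genes, the 5 best matches in pattern per gene and, per list and comparison, up to 4 called with the smallest adjusted p. Other list members were named after their values were seen. The values of 1 marker gene are not reported here. The remaining marker lists summed, across the 5 gates, to 2099 to 3498 CPM for thymocytes of the gates, to 120 to 302 CPM for epithelium and stroma, where Krt5 was at 0 throughout, and to at most 1.25 CPM for erythroid genes.

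By the design text, equal replicate numbers were read as the same biological replicate. Deviations from gate means correlated at −0.016 to 0.0423 across genes for the same number (30 pairs) and −0.0444 to 0.0349 for other numbers (60 pairs). Alternatives were RLE and upper quartile factors, other filters on low counts, the replicate block, only the groups compared, limma-voom (limma 3.58.1), DESeq2 1.42.0, no Bst2+ libraries and each library left out. Intervals are for log2 differences, with an error that rests on the spread between these libraries.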

Additional observations from a re-analysis of the deposited data

Results flagged for a closer look

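The effect of the CD25 gate on Nr4a1 and Nr4a3 differed between FOXP3-expressing and FOXP3-negative cells in a test of the interaction itself. The log2 difference between the effects was −1.37 ± 0.24 for Nr4a1 (adjusted p = 0.00320, edgeR's quasi-likelihood test) and −1.49 ± 0.13 for Nr4a3 (adjusted p = 4.86e-06). In FOXP3-negative cells every CD25+ library lay above every CD25- library for both genes. In FOXP3-expressing cells this held for Nr4a3, at 301 to 320.3 CPM against 232 to 248, and did not hold for Nr4a1, at 184 to 234 CPM against 203 to 229. The FOXP3-expressing gates differed in FOXP3 level by their sort as well as in CD25, and these cannot be told apart. The interaction was also called for Il2ra, the gene of CD25, so the CD25 difference itself was not the same on both sides.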

How the results depend on the processing

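The numbers of NR4A and EGR genes called depended most on whether the Bst2+ libraries shared in the estimate of spread. Called genes rose from 1 to 4 for FOXP3lo progenitors against conventional cells, from 3 to 6 for mature Tregs against conventional cells and from 2 to 4 for mature Tregs against CD25+ progenitors, both without the Bst2+ libraries and with only the groups compared. Calls over all genes rose too, from 1400, 1957 and 2096 of 16069 to 3925, 4756 and 5114 of 15648 without the Bst2+ libraries. With only the groups compared they were 4459 of 14321, 4418 of 14050 and 4687 of 14079. With no filter on low counts 2 members were called for FOXP3lo progenitors against conventional cells, beside 1447 of 36307 genes. With 1 library left out, the numbers ran over 3 to 5 for CD25+ progenitors and 1 to 3 for mature Tregs against conventional cells, 1 to 2 for mature Tregs against CD25+ progenitors, 0 to 2 for mature Tregs against FOXP3lo progenitors and 2 to 4 for Bst2+ against conventional cells. Over all genes these fits called 1268 to 1395, 1342 to 1458, 1448 to 1553, 418 to 519 and 3287 to 6176, of 17121 to 17453 tested. With all libraries 1871, 1957, 2096, 759 and 4669 of 16069 were called. Leaving out 1 library from the fit without Bst2+ cells, a setting added after seeing the data, gave 6, 6, 3 to 4 and 4 for the first 4 of these comparisons, 3 to 4 for FOXP3lo progenitors against conventional cells and 3 to 4 for the interaction. In this order, 3878 to 4199, 4100 to 4424, 4449 to 4802, 2312 to 2707, 3205 to 3611 and 1401 to 1610 of all genes were called there. The replicate block changed no call of the 6 genes, and CD25+ progenitors against conventional cells kept 5 called, beside 1762 of 16069 genes. Directions turned only for differences that were not called with all libraries. The interaction of Egr2 was 0.01 with RLE factors, 0.00 with the 2 CPM filter and 0.01 with DESeq2. For Egr3 in Bst2+ cells against the mean of 3 gates the value was −0.02 with no filter, −0.10 with the replicate block and −0.18 with limma-voom, and −0.95 to 0.42 with 1 library left out. The cause was not tested. With 1 library left out, with or without the Bst2+ libraries, signs also turned for Egr1 (−0.09 to 0.06) and Egr2 (−0.01 to 0.18) in FOXP3lo progenitors against conventional cells, Egr2 in mature Tregs against CD25+ progenitors (−0.09 to 0.17), Nr4a1 (−0.13 to 0.04) and Nr4a2 (−0.02 to 0.46) in mature Tregs against FOXP3lo progenitors, the interaction of Egr2 (−0.17 to 0.09), and Nr4a2 (−0.72 to 0.24) and Egr3 (−1.21 to 0.17) in Bst2+ against conventional cells. Nr4a2 rested on 26 to 502 counts a library.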
